A study of Homo sapiens with 50 samples.

Results

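The serine dependence of a compound's effect was measured in A549 cells, an established human lung adenocarcinoma line, at 6 h after the compound was added. It is the difference between 2 compound effects: 1 uM compound 16 against DMSO in medium without serine, minus the same comparison in medium with serine. The arrays were chosen by their titles, and 12 of the 50 arrays of the series entered, as 3 arrays in each of 4 groups. These were cells without serine given compound 16, cells without serine given DMSO, cells with serine given compound 16, and cells with serine given DMSO. All 4 groups had grown in RPMI and had spent 24 h in BME with non-essential amino acids (NEAA), made up with or without serine, before treatment. According to its title, the series concerns a small molecule that activates PKM and leaves cells needing outside serine, so the comparison asks which transcripts responded to the compound differently when serine was missing. The other arrays came from the same line before the change of medium and from the same 4 treatments at 0, 1.5 and 24 h. A549 is a single line, so the values describe this line, and whether a group's 3 arrays were separate cultures is not stated in the labels. The p-values thus reflect how far arrays scatter within groups, estimated over all 50 arrays of the series, and that scatter may be technical. In bulk RNA of this kind, fewer cells with a transcript and less of it per cell cannot be told apart.

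PKM, a pyruvate kinase, turns phosphoenolpyruvate into pyruvate at the end of glycolysis. Serine is made from a glycolytic intermediate that lies upstream of this step, by PHGDH, PSAT1 and PSPH in turn, so a cell without serine in its medium depends on carbon leaving glycolysis above PKM. Serine feeds protein synthesis, glycine, folate-bound one-carbon units, cysteine and lipids. When an amino acid runs short, uncharged tRNA activates the kinase GCN2, which phosphorylates eIF2alpha, slows translation at large and favours translation of the transcription factor ATF4. ATF4 pairs with C/EBP family proteins and raises genes of amino acid synthesis, uptake and tRNA charging, together with regulators such as DDIT3, TRIB3 and CEBPB.

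Across the 12 arrays, the deposited log2 signals had medians between 5.45 and 5.49, and 2 arrays of a group differed with an SD of 0.194 to 0.255 across genes. The excess of 3′ over 5′ ACTB signal, which reads RNA integrity, was 1.05 to 1.34 without serine and with compound, 1.28 to 1.37 without serine in DMSO, 0.92 to 1.09 with serine and compound, and 1.00 to 1.29 with serine in DMSO. It was thus higher without serine in part of the arrays, and its part in the results was not tested. The 10 measured markers of an A549-like epithelium had a mean log2 signal of 12.8 to 12.9 on every array of the 4 groups, and 1 of them was called in the serine dependence, keratin KRT19 at -0.42. None of the 14 measured markers of fibroblasts, leukocytes and endothelium was called in it, and the 3 lists' mean log2 signals lay between 4.40 and 5.37. Among these, lysozyme LYZ had 6.44 to 6.73 on the 6 arrays without serine and 5.34 to 5.83 on the 6 with serine, in both DMSO and compound.

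The compound effect at 6 h differed between the media for 162 of 18239 genes (0.888%) at an adjusted p under 0.05 in limma. It was more positive without serine for 112 genes (0.614%) and more negative for 50 (0.274%), and 18 genes differed at least 2-fold. The 10 most positive differences were those of NIBAN1, DDIT3, TRIB3, NUPR1, SCG5, STC2, SPX, PCK2, SNTB1 and SESN2. Of these, NIBAN1, DDIT3, TRIB3, NUPR1, STC2, PCK2 and SESN2 belong to the lists of amino acid response genes, and SCG5, SPX and SNTB1 to none of the lists. The most negative were those of the secreted protein FGFBP1, the cholesterol regulator INSIG1, the tight-junction protein CLDN2 and the heat shock genes HSPA1B and HSPA2. Within the medium without serine, compound 16 changed 496 genes (2.72%), with 271 higher (1.49%) and 225 lower (1.23%). After centring each array on its median the split was 234 against 253. Within the medium with serine it changed 0 genes (0%) in limma, where 1105 genes had an unadjusted p under 0.05 and the smallest adjusted p was 0.482. Of the 162 genes, 147 were also called within the medium without serine in the same direction. For 131 of the 162, the 95% interval of the effect with serine included 0. Both effects share no arrays, but each is part of the difference, so these counts describe how the difference is built.

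**Figure D1:**
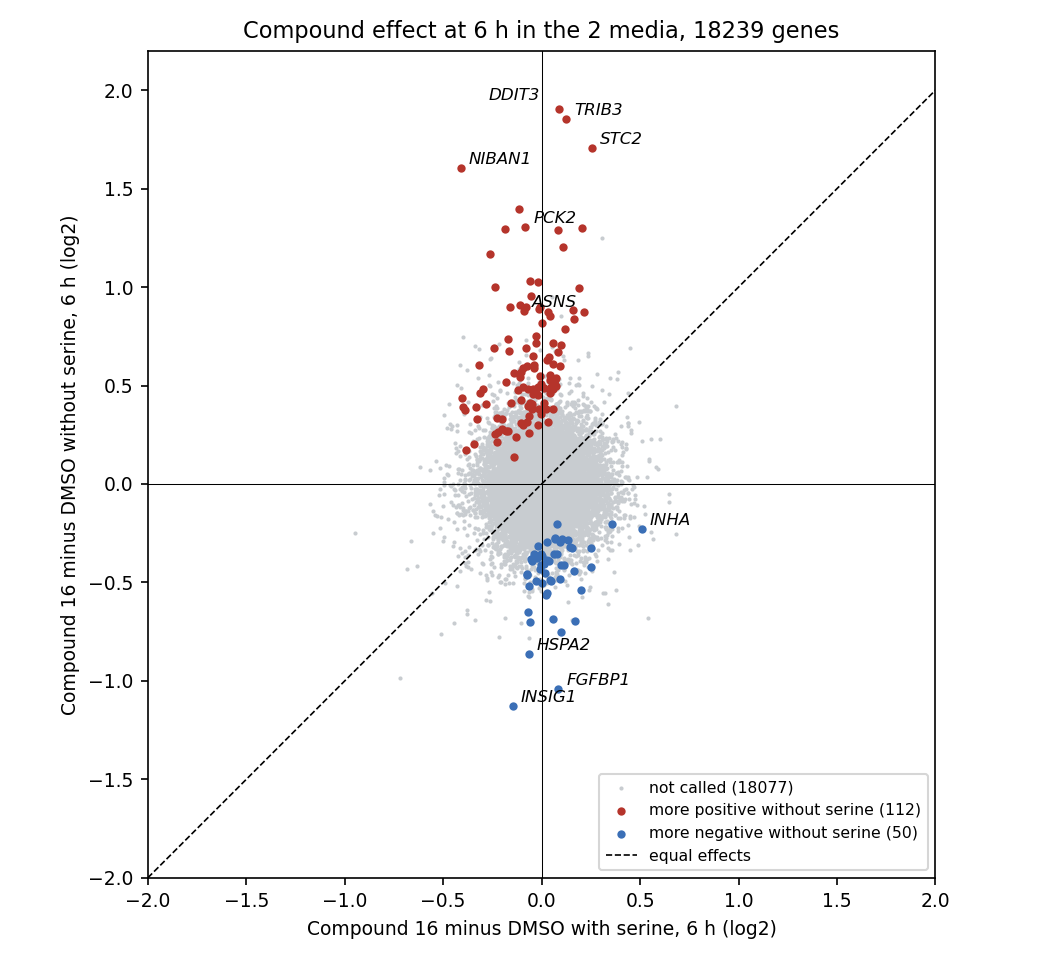
Compound 16 minus DMSO at 6 h on the log2 scale for 18239 genes, with serine on the horizontal axis and without serine on the vertical axis; each point is 1 gene, coloured where the difference between the media had an adjusted p under 0.05 (112 more positive, 50 more negative without serine). The coloured points spread along the vertical axis, up to 1.91 for DDIT3 and down to -1.13 for INSIG1, while their effects with serine stay between -0.41 (NIBAN1) and 0.51 (INHA).

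The same difference can be read by medium, since it equals the effect of serine lack under compound 16 minus that in DMSO. Serine lack changed 580 genes (3.18%) in DMSO, with 319 higher (1.75%) and 261 lower (1.43%; 249 and 314 after centring), and 2146 genes (11.8%) under compound 16, with 1135 higher (6.22%) and 1011 lower (5.54%; 872 and 1342 after centring). Of the 162 genes with a serine-dependent compound effect, 54 had already moved the same way when serine was missing in DMSO, 105 were not called there and 3 had moved the other way. For the 112 genes, the median log2 change was 0.53 for compound without serine, -0.05 for compound with serine and 0.23 for serine lack in DMSO. For the 50 genes it was -0.41, 0.04 and -0.09. For 106 of the 112 genes, the 3 arrays with compound and without serine lay above the other 9 arrays, an order that 4.33% of all genes showed. For 47 of the 50 genes these 3 arrays lay below the other 9, which 4.15% of all genes did. The genes were called on these same 12 arrays, so the order follows largely from the selection and is no separate support.

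TRIB3, a pseudokinase that ATF4 and DDIT3 induce and that restrains ATF4, had log2 signals of 11.85, 11.89 and 12.03 without serine and with compound. Without serine in DMSO it had 9.92, 10.11 and 10.18. With serine it had 9.06, 9.17 and 9.19 under compound and 8.99, 9.03 and 9.03 in DMSO. The 4 groups of arrays did not overlap, and the 3 arrays with both compound and serine lack stood apart from the rest by over 1 log2 unit. The compound effect was 1.85 on the log2 scale without serine and 0.12 with serine (95% interval -0.02 to 0.27). The difference of 1.73 ± 0.10 (SE, n = 3 arrays a group) had an adjusted p of 1.28e-14 in limma, a fold change 3.31 times as large without serine.

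NIBAN1, a protein induced by stress that acts on translation and survival, had log2 signals of 9.39, 9.45 and 9.52 without serine and with compound, and 7.64, 7.86 and 8.06 without serine in DMSO. With serine it had 6.34, 6.35 and 6.56 under compound and 6.79, 6.83 and 6.87 in DMSO. The compound arrays were the highest group without serine and the lowest with serine, with no overlap between any groups. The compound effect was 1.60 without serine and -0.41 with serine (95% interval -0.74 to -0.08, adjusted p = 0.800 in limma). The difference was 2.01 ± 0.23 (adjusted p = 3.63e-07 in limma), or 4.04 times in fold change. All 3 of its probe sets had a positive difference, from 0.28 to 2.01, and the probe set used here gave the largest.

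FGFBP1, a secreted carrier of fibroblast growth factors, had log2 signals of 6.08, 6.16 and 6.35 without serine and with compound. In the other 9 arrays it lay between 7.07 and 7.67, where compound arrays with serine overlapped both DMSO groups: 7.07, 7.31 and 7.33 without serine in DMSO, 7.25, 7.56 and 7.67 with serine and compound, and 7.34, 7.40 and 7.47 with serine in DMSO. Its compound effect was -1.04 without serine and 0.08 with serine (95% interval -0.23 to 0.40). The difference was -1.12 ± 0.22 (adjusted p = 0.00277 in limma), and serine lack in DMSO gave -0.17 (adjusted p = 0.733). FGFBP1 was the gene with the most negative difference among the 50.

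**Figure D2:**
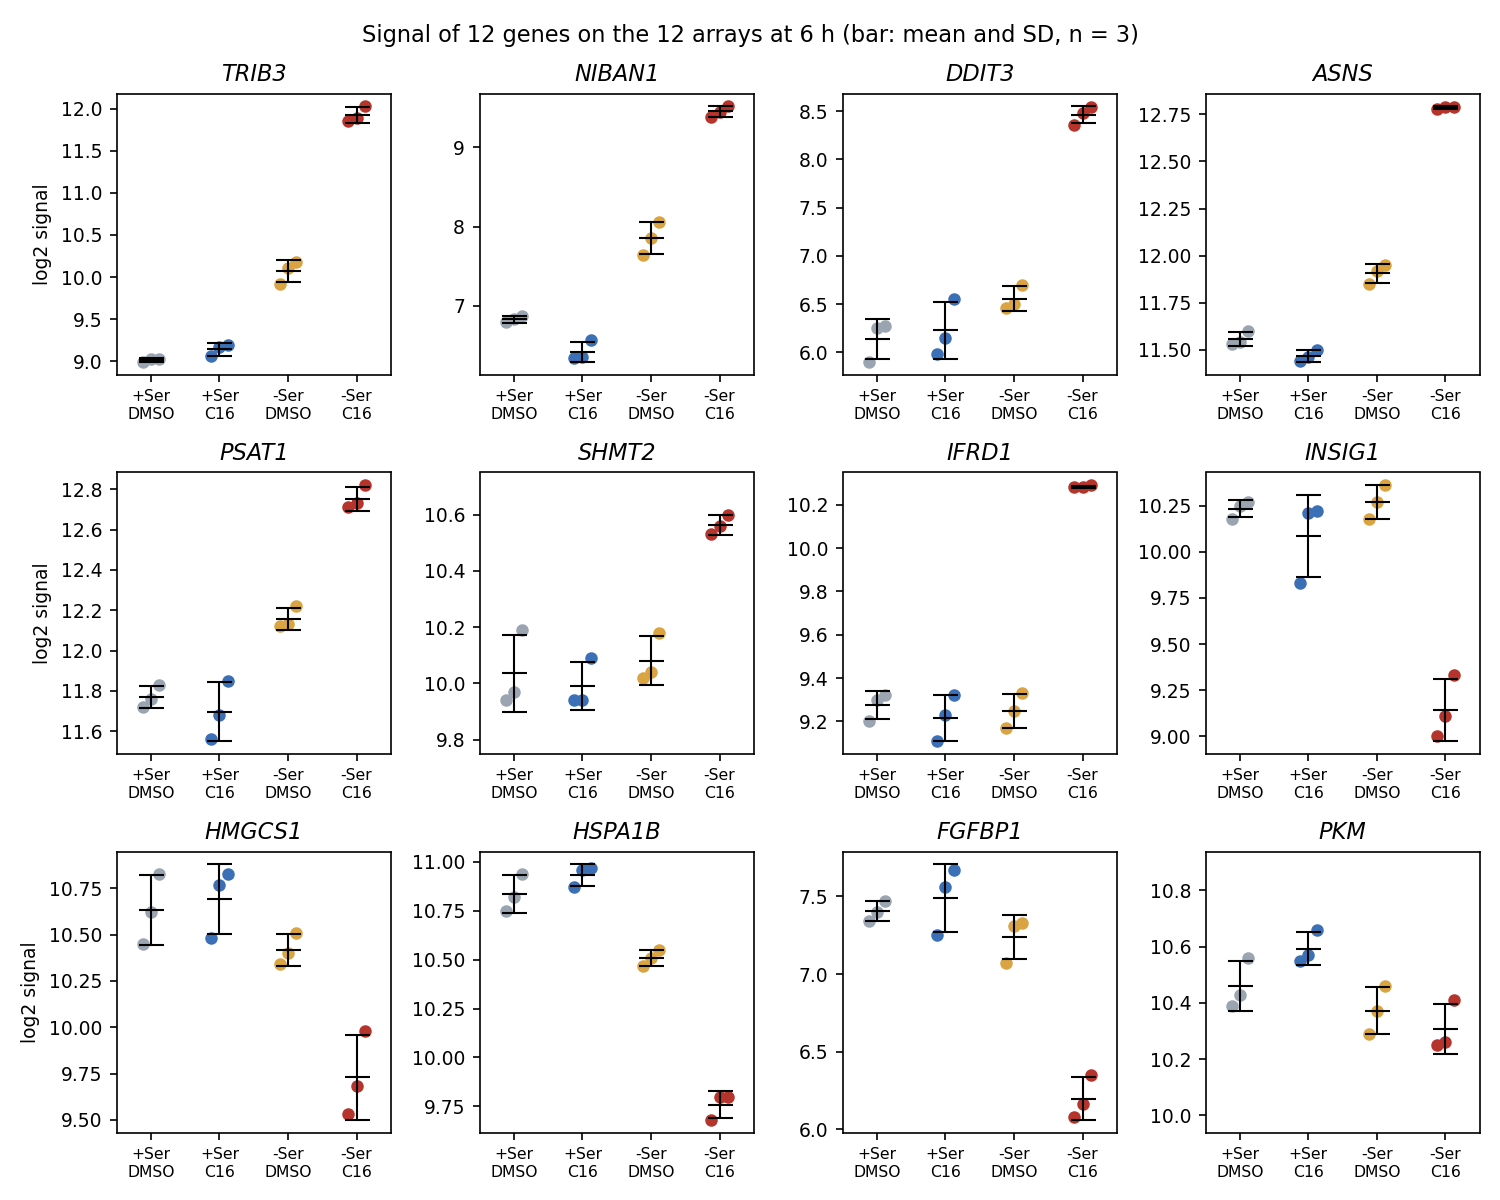
Log2 signal of 12 genes on each of the 12 arrays at 6 h; each dot is 1 array, the bars give the mean and SD of 3 arrays, and each panel has its own axis, which does not start at 0. In TRIB3, NIBAN1 and ASNS the red arrays without serine and with compound lie above all others and the DMSO arrays without serine lie between, whereas in IFRD1 and SHMT2 the remaining 9 arrays lie together, and in INSIG1, HMGCS1, HSPA1B and FGFBP1 the red arrays are lowest.

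Of 13 transcription factors and regulators linked to ATF4, 7 had a more positive compound effect without serine and 1, CEBPD, a more negative one (-0.34). Over all genes, 0.614% were called more positive and 0.274% more negative. The median difference of the list was 0.68, beside -0.01 over all genes. DDIT3, also known as CHOP and tied to cell death under stress, had log2 signals of 8.36, 8.48 and 8.54 without serine and with compound, against 5.90 to 6.70 in the other 9 arrays. Compound with serine overlapped both DMSO groups, which did not overlap each other (6.46 to 6.70 without and 5.90 to 6.27 with serine). Its difference was 1.82 ± 0.28 (adjusted p = 7.62e-05 in limma).

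NUPR1, a small stress-induced chromatin protein, had 10.44, 10.45 and 10.46 without serine and with compound, 8.99, 9.02 and 9.15 without serine in DMSO, and 8.04 to 8.53 on the 6 arrays with serine. Its difference was 1.51 ± 0.17. CEBPG, a C/EBP protein that dimerises with ATF4, had 11.37, 11.47 and 11.50, then 10.50, 10.56 and 10.59, and 10.14 to 10.22 on the 6 arrays with serine. Its difference of 0.90 ± 0.07 had an adjusted p of 2.07e-10 in limma, smaller than those of all other genes but TRIB3. CEBPB differed by 0.68, with -0.02 for serine lack in DMSO (adjusted p = 0.938), and JDP2, a repressor of the AP-1 family, by 0.77. JDP2 and CEBPD did not keep their calls in every fit that left out an array. ATF3 differed by 1.10 in its brightest probe set, but 3 of its 7 probe sets had the opposite sign, and the mean of all 7 gave 0.24 (adjusted p = 0.283). The transcript of ATF4 itself, which is regulated mainly in translation, had a difference of 0.21 ± 0.07 (adjusted p = 0.242). It had a rise of 0.53 for serine lack in DMSO. None of the 7 measured eIF2alpha kinases and phosphatase subunits was called, and the one with the smallest p, the phosphatase subunit PPP1R15A, had 0.41 ± 0.19 (adjusted p = 0.494).

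The 3 enzymes of serine synthesis all had a more positive compound effect without serine, where 0.614% of all genes were called more positive. PHGDH, the first of them, had log2 signals of 10.53, 10.62 and 10.63 without serine and with compound. It had 9.80, 10.00 and 10.09 without serine in DMSO, and 9.63 to 9.73 on the 6 arrays with serine, where compound and DMSO overlapped. Its compound effect was 0.63 without and 0.03 with serine, and the difference was 0.60 ± 0.11 (adjusted p = 0.00192 in limma). PSAT1, the aminotransferase that follows, differed by 0.67 ± 0.11, and all 8 of its probe sets had the same sign. PSPH, the phosphatase that releases serine, differed by 0.51 ± 0.09 with 2 of its 3 probe sets of the same sign. All 3 had also risen with serine lack in DMSO, by 0.29, 0.39 and 0.34.

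Serine hydroxymethyltransferase SHMT2 and the dehydrogenase MTHFD2 carry the one-carbon unit of serine into mitochondrial folate. Their differences were 0.53 ± 0.10 (adjusted p = 0.00128) and 0.55 ± 0.08 (adjusted p = 9.36e-05) in limma. The 2 enzymes differed in DMSO: SHMT2 changed by 0.05 with serine lack (adjusted p = 0.863), and its 9 arrays outside the combined condition lay between 9.94 and 10.19 against 10.53, 10.56 and 10.60. MTHFD2 had already risen by 0.79, to 12.28, 12.39 and 12.41 without serine in DMSO from 11.49, 11.53 and 11.70, and reached at least 12.94 on all 3 arrays with compound. Of the 7 mitochondrial one-carbon enzymes these 2 were called, where 0.614% of all genes were called more positive. None of the 8 cytosolic ones was, with a median of -0.08 and the smallest p for SHMT1 at -0.24 (adjusted p = 0.412). None of 7 genes of glycine cleavage and use was called, with a median of -0.04.

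Among 21 further targets of the amino acid response, 13 had a more positive compound effect without serine and none a more negative one, with a list median of 0.84. Of all genes, 0.614% were called more positive. On 17 of the 21, the 3 arrays with compound and without serine lay above the other 9 (4.33% of all genes). Asparagine synthetase ASNS had 12.78, 12.79 and 12.79 there, 11.85, 11.92 and 11.95 without serine in DMSO, 11.44, 11.46 and 11.50 with serine and compound, and 11.53, 11.54 and 11.60 with serine in DMSO. No 2 of these groups overlapped, and the difference was 0.97 ± 0.09 (adjusted p = 6.71e-09 in limma). CHAC1, which breaks down glutathione, had 7.01, 7.28 and 7.44 against 4.83 to 6.01 elsewhere and differed by 1.09 ± 0.23. The stanniocalcin STC2 differed by 1.45 ± 0.24 on top of a rise of 1.97 with serine lack in DMSO, so that its mean under compound was 3.42 log2 units higher without serine than with it. GDF15, a secreted stress hormone, differed by 0.72 and the angiogenic factor VEGFA by 0.81, with all 10 of its probe sets of the same sign. TUBE1 (1.02), VLDLR (0.93) and CBS (0.82), which condenses serine with homocysteine, followed. CBS, CHAC1 and SLC7A11 were the 3 called of 10 genes of transsulfuration and glutathione, whose median was 0.08.

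Of 10 genes that restrain mTORC1, the growth kinase that senses amino acids, or its output, 3 had a more positive compound effect without serine (0.614% of all genes). SESN2, a leucine-sensing stress protein, had log2 signals of 8.75, 8.88 and 8.91 without serine and with compound, 7.43, 7.59 and 7.65 without serine in DMSO, and 6.70 to 7.04 with serine. Its difference was 1.20 ± 0.16 (adjusted p = 1.13e-05 in limma). DDIT4 differed by 0.84 ± 0.10 and the translation repressor EIF4EBP1 by 0.67 ± 0.08. The median over the 10 genes was 0.11.

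Of 19 cytosolic aminoacyl-tRNA synthetases, the enzymes that charge tRNA for protein synthesis, 9 had a more positive compound effect without serine (0.614% of all genes). None of the 16 mitochondrial ones was called. The list medians were 0.29 and 0.03, and the cytosolic list's mean log2 signal was 10.86 to 10.89 with compound and without serine, 10.55 to 10.59 without serine in DMSO and 10.36 to 10.46 with serine. The largest differences were those of CARS1 (0.78), GARS1 (0.69) and AARS1 (0.61), for cysteine, glycine and alanine. SARS1, the seryl-tRNA synthetase, differed by 0.46, beside MARS1 (0.46), EPRS1 (0.48), WARS1 (0.42), TARS1 (0.41) and IARS1 (0.36). EPRS1 did not keep its call in every fit that left out an array. CARS1 had 10.44, 10.46 and 10.48 without serine and with compound, 9.65, 9.66 and 9.82 without serine in DMSO, and 8.96 to 9.10 with serine. IARS1 was the called synthetase with the smallest change for serine lack in DMSO, at 0.04. WARS2 had the smallest p among the mitochondrial enzymes, with 0.65 ± 0.18 (adjusted p = 0.0750), made up of 0.21 without serine and -0.44 with serine.

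Of 11 carriers of serine and other neutral amino acids, SLC1A4, an exchanger of alanine, serine and cysteine, differed by 0.69 ± 0.13. The glutamine carrier SLC1A5 differed by 0.51 and SLC38A1 by 0.44. These 3 were called more positive, as were 0.614% of all genes. Of 11 members of the SLC7 and SLC3 families, the cationic carrier SLC7A1 differed by 0.59 ± 0.09, the cystine exchanger SLC7A11 by 0.47 and its partner SLC3A2 by 0.42. SLC3A2 did not change with serine lack in DMSO at the threshold (0.01, adjusted p = 0.970), and its 9 arrays outside the combined condition lay between 11.74 and 12.05 against 12.24, 12.40 and 12.40. SLC38A1 and SLC3A2 were each lost from the calls on leaving out single arrays (adjusted p up to 0.136 and 0.124, without replicate 58 of compound with serine and without replicate 66 of DMSO without serine). With the mean of all probe sets, SLC1A4 (adjusted p = 0.0745) and SLC7A11 (0.133) were not called.

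Because many of the genes above are known to be bound by ATF4 with C/EBP partners, the RefSeq promoter windows (assembly GRCh38.p14, 250 bases before to 50 after each start, both strands) were searched for the composite motif TGATGNAA. It was present for 23 of the 92 genes with a window among the 112 (25%), for 1 of 44 among the 50 (2.27%) and for 522 of 14492 among all genes tested (3.60%). Counted by window it was in 24 of 144 (16.7%) against 2.68% of 20492, since genes of the first group had 1.57 windows each and all genes 1.41. Among the synthetases, 6 of the 9 called had it (66.7%) and 1 of the 7 uncalled with a window (14.3%). These are matches of letters, not measured binding. The 250 bases upstream of ASNS (chr7:97872409-97872658, minus strand) and of CHAC1 (chr15:40953221-40953470, plus strand) are shown 5′ to 3′ along the gene, for the best known target and for a target with large change, with the motif in capitals; in CHAC1 it lies on the other strand. Below them, 30-base windows on the strand that holds the motif show the bases around the motif in a C/EBP factor, an AP-1 factor, 3 synthetases and a carrier; the search itself fixed every letter of the motif but N. They lie at chr19:33374060-33374089 (CEBPG, plus strand), chr14:75427995-75428024 (JDP2, plus), chr11:3057407-3057436 (CARS1, plus), chr7:30594834-30594863 (GARS1, minus), chr16:70289675-70289704 (AARS1, plus) and chr19:46784893-46784922 (SLC1A5, minus).
ASNS: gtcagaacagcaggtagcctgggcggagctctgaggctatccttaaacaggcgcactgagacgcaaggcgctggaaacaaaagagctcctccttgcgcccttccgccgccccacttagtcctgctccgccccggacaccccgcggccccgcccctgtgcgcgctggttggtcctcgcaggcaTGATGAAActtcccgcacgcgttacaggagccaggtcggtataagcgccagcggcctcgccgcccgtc
CHAC1: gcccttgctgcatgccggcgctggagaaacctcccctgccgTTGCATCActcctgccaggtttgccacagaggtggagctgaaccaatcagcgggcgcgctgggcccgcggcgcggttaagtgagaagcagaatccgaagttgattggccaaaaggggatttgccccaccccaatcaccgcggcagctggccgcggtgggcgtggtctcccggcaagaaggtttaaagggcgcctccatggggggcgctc
CEBPG: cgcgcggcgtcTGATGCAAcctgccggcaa
JDP2: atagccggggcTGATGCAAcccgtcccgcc
CARS1: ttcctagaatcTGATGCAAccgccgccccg
GARS1: ggctcggagcaTGATGAAAtcgccgcgtaa
AARS1: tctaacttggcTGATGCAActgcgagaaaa
SLC1A5: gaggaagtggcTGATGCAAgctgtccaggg
The difference of the compound effects was 0.97 for ASNS, 1.09 for CHAC1, 0.90 for CEBPG, 0.77 for JDP2, 0.78 for CARS1, 0.69 for GARS1, 0.61 for AARS1 and 0.51 for SLC1A5. The match of ASNS lies between bases -68 and -61 from the start and that of CEBPG between -42 and -35.

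**Figure D3:**
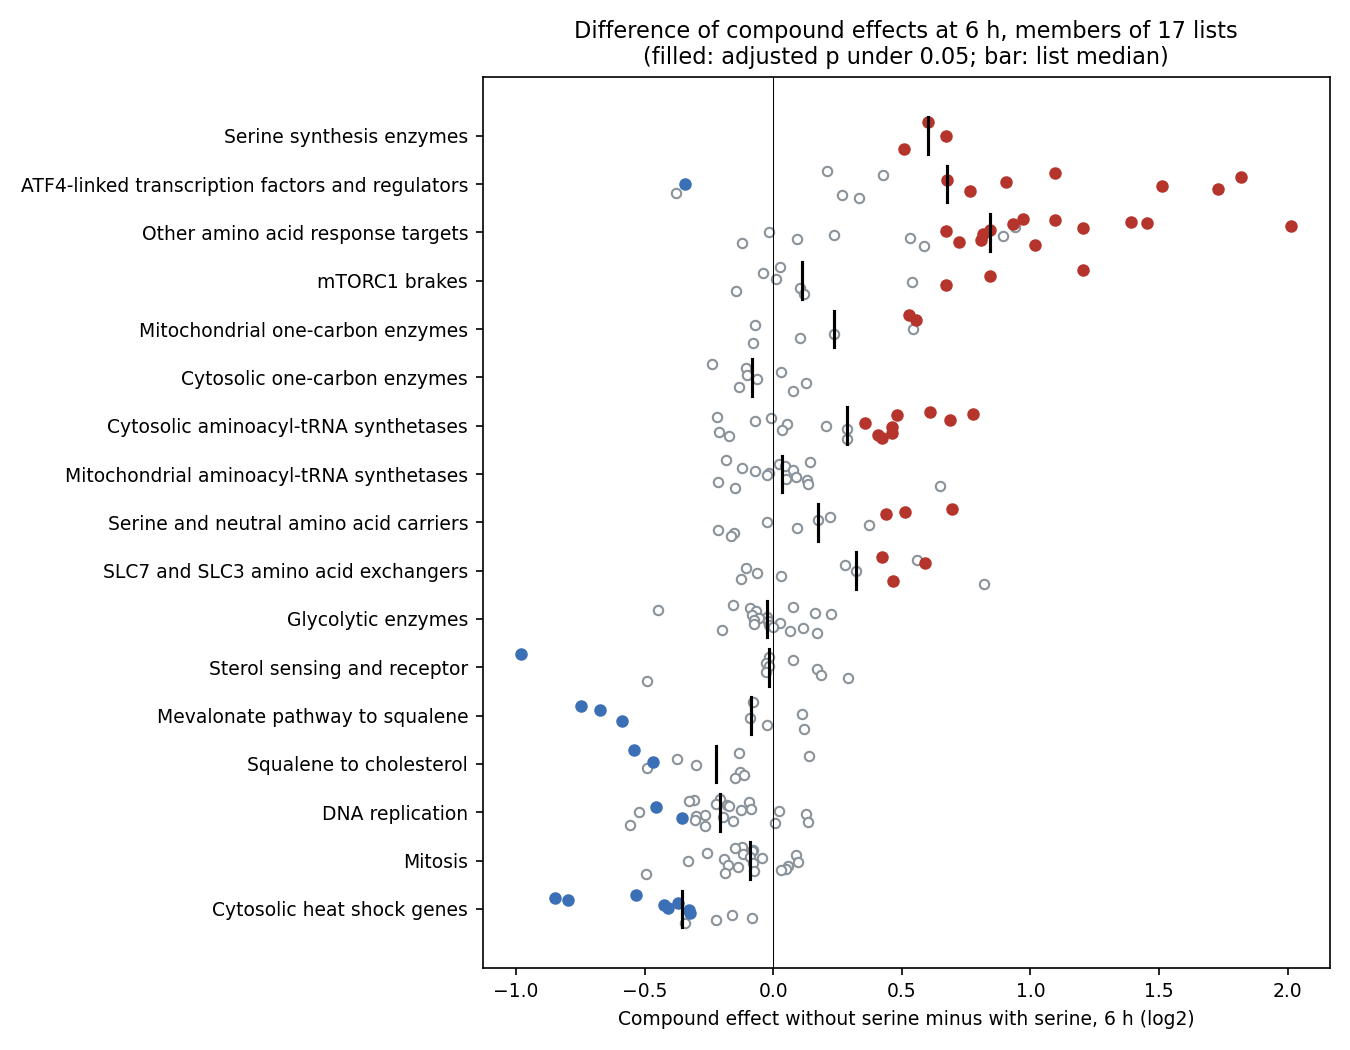
Difference of the compound effects at 6 h (log2, without minus with serine) for the members of 17 gene lists; each circle is 1 gene, filled where the adjusted p was under 0.05, and the bar is the list's median. Serine synthesis (median 0.60), the ATF4-linked regulators (0.68) and other amino acid response targets (0.84) lie to the right, heat shock genes (-0.36) to the left, and glycolytic enzymes (-0.02) around 0.

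PKM, the target named in the series title, had log2 signals of 10.25, 10.26 and 10.41 without serine and with compound, 10.29, 10.37 and 10.46 without serine in DMSO, 10.55, 10.57 and 10.66 with serine and compound, and 10.39, 10.43 and 10.56 with serine in DMSO. The compound and DMSO arrays overlapped in the medium without serine. Its difference was -0.20 ± 0.09 (adjusted p = 0.489 in limma), and 4 of its 5 probe sets had that sign. None of 20 glycolytic enzymes was called, with a median of -0.02 and a range from -0.45 to 0.22. Of 15 genes of the fate of pyruvate and phosphoenolpyruvate, PCK2 alone was called. This mitochondrial enzyme makes phosphoenolpyruvate from oxaloacetate and is an ATF4 target. It had 10.21, 10.27 and 10.34 without serine and with compound, 8.86, 8.99 and 9.05 without serine in DMSO, and 8.34 to 8.55 with serine, a difference of 1.39 ± 0.13 (adjusted p = 6.71e-09). Of 2 glucose-sensing arrestins neither was called. TXNIP, one of them, had 8.08, 8.13 and 8.19, then 7.11, 7.19 and 7.25, and 5.34 to 5.96 with serine. The arrays without serine lay above all those with serine. Its difference of 0.90 ± 0.33 did not pass (adjusted p = 0.277), whereas the mean of its 5 probe sets did (0.73, adjusted p = 0.00411).

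Of the measured genes of sterol sensing and cholesterol synthesis, 6 had a more negative compound effect without serine and most were not called. Of all genes, 0.274% were called more negative. INSIG1, which holds the SREBP precursor in the endoplasmic reticulum and is itself an SREBP target, had a middle log2 signal of 9.11 and a highest of 9.33 without serine and with compound, against 9.83 to 10.36 in the other 9 arrays. The other groups overlapped. Serine lack alone gave 0.04 and compound with serine -0.15, and the difference was -0.98 ± 0.12 (adjusted p = 7.59e-07 in limma). It was the only called member of 10 sterol-sensing genes. Of 8 enzymes from acetyl-CoA to squalene 3 were called: HMGCS1 (-0.75 ± 0.15), MVK (-0.67 ± 0.13) and IDI1 (-0.59 ± 0.14). Of 10 enzymes from squalene to cholesterol, SQLE (-0.54 ± 0.08) and MSMO1 (-0.47 ± 0.12) were called. HMGCS1, which makes the precursor of mevalonate, had 9.53, 9.68 and 9.98 without serine and with compound, and 10.34 to 10.83 elsewhere. For MVK the effect was -0.42 without serine and 0.25 with it (95% interval 0.06 to 0.44, adjusted p = 0.800). The list medians were -0.08 and -0.22. IDI1 and MSMO1 were lost on leaving out single arrays, with adjusted p up to 0.102 (replicate 62 of DMSO with serine) and 0.148 (replicate 63 of compound without serine). None of 12 genes of fatty acid synthesis was called; all 12 differences were below 0, with a median of -0.12, and FASN had -0.54 (adjusted p = 0.0754). The core of the sterol regulatory element, TCACNCCAC, was found for none of the 5 called sterol genes with a promoter window (of 6 called), and for 1.55% of all genes tested. With 5 genes and a share this low, the lack of matches cannot tell these genes from others. Only this spelling within the promoter windows was searched, and the result says nothing of binding.

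Heat shock genes had a more negative compound effect without serine in 8 of 12 cases, the highest share in that direction among the 42 lists, with a median of -0.36. Of all genes, 0.274% were called lower in the difference. For 11 of the 12, the 3 arrays with compound and without serine lay below the other 9 (4.15% of all genes). The list's mean log2 signal was 11.40 to 11.48 there, 11.81 to 11.82 without serine in DMSO, 12.05 to 12.06 with serine and compound, and 12.02 to 12.06 with serine in DMSO. HSPA1B, an inducible Hsp70, had 9.68, 9.80 and 9.80, then 10.47, 10.51 and 10.55 without serine in DMSO, and 10.75 to 10.97 with serine. Its difference was -0.85 ± 0.09 (adjusted p = 2.10e-08 in limma). HSPA1A, its near-identical copy, differed by -0.53, and the probe sets of the pair may not separate them. HSPA2 (-0.80), the Hsp110 gene HSPH1 (-0.42), the Hsp40 genes DNAJB1 (-0.41) and DNAJA1 (-0.33), the constitutive Hsp70 gene HSPA8 (-0.37) and HSP90AA1 (-0.32) were the others called. DNAJA1 did not keep its call in every fit that left out an array. Serine lack in DMSO had lowered 8 of the 12 (1.43% of all genes), among them HSPA1B by 0.33 and HSPA2 by 0.51. In the endoplasmic reticulum list 2 of 16 were called, in opposite directions: HERPUD1 at 0.48 and MANF at -0.43. HERPUD1 was lost on leaving out either of 2 arrays (adjusted p up to 0.0636, without replicate 58 of compound with serine).

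The heat shock element was searched as GAA, TTC and GAA in a row with any 2 bases between them. Of the 8 called heat shock genes, 3 held it in a promoter window (37.5%), against 0.559% of all genes tested, counted on both strands. These 3, HSPA8 (-0.37), DNAJA1 (-0.33) and HSP90AA1 (-0.32), had the smallest differences of the 8. The other called genes, among them HSPA1B (-0.85) and HSPA2 (-0.80), held no match. HSPA8 had 2 matches, 1 of which is shown. The 30-base windows are shown with the element in capitals, since these are the called members with this spelling: chr11:123062170-123062199 (HSPA8, plus strand), chr9:33025268-33025297 (DNAJA1, plus) and chr14:102087111-102087140 (HSP90AA1, plus).
HSPA8: cctatcttaGAACCTTCCAGAAggggcccg
DNAJA1: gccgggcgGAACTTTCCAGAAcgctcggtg
HSP90AA1: aagcctcccGAACCTTCCGGAAgaaccctc
A match of this spelling is a description of the letters in the window and says nothing of binding in these cells.

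Few cell cycle genes were called in the difference, while more were called in its parts. Of 23 DNA replication genes, the flap nuclease FEN1 (-0.46 ± 0.11) and the origin factor CDC6 (-0.35 ± 0.09) were called, where 0.274% of all genes were called lower. The list median was -0.21, beside -0.01 over all genes. For 14 of the 23, the 3 arrays with compound and without serine lay below the other 9 (4.15% of all genes). Without serine, the compound lowered 8 of the 23 (1.23% of all genes). FEN1 and CDC6 were each lost on leaving out single arrays, with adjusted p up to 0.113 (replicate 63 of compound without serine) and 0.0972 (replicate 68 of DMSO without serine). None of 21 mitosis genes was called, with a median of -0.09. For 13 of them the 3 arrays with compound and without serine lay below the other 9. Serine lack in DMSO had lowered 15 of the 21 (1.43% of all genes). SGO2, the mitosis gene with the smallest p, had -0.49 ± 0.13 (adjusted p = 0.0524), and it passed under quantile normalization (-0.53, adjusted p = 0.0298). None of 16 regulators of G1 and S entry was called, with a median of -0.14, and 6 lay below the other 9 arrays in the same way. Of 14 enzymes of nucleotide synthesis, CTP synthase CTPS1 alone was called, at 0.49, and it was lost on leaving out any of 5 arrays (adjusted p up to 0.0792, without replicate 67 of DMSO without serine).

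Of 14 p53 target genes, GDF15 (0.72), the Noxa gene PMAIP1 (0.70), the Puma gene BBC3 (0.47) and the death receptor TNFRSF10B (0.44 ± 0.07, adjusted p = 0.000199 in limma) were called more positive, as were 0.614% of all genes. The list median was 0.14. All 4 called genes are also known as targets of the ATF4 and DDIT3 branch. PMAIP1 had 9.63, 9.66 and 10.05 without serine and with compound, 9.11, 9.23 and 9.46 without serine in DMSO, and 8.46 to 8.92 with serine. PMAIP1 and BBC3 were lost on leaving out single arrays, with adjusted p up to 0.0706 (replicate 65 of compound without serine) and 0.0800 (replicate 67 of DMSO without serine). TNFRSF10B was not lost in that way, but it was not called when the compared arrays alone were fitted (adjusted p = 0.176 in limma). Of 13 BCL2 family genes these 2 alone were called. VEGFA was the 1 called gene of 13 in the hypoxia list, SLC7A11 of 13 in the NRF2 list and MAP1LC3B, the LC3 protein of autophagosomes, of 13 in the autophagy list, where it had 0.47 ± 0.09 (adjusted p = 0.00305).

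Several lists held no called gene. They were ribosome biogenesis (16 genes, median -0.01), immediate early genes (17, 0.07), MAP kinase feedback (11, 0.14), chemokines and cytokines (14, -0.10), interferon-stimulated genes (14, 0.07), lysosomal genes (11, -0.06) and NKG2D ligands (6, 0.20). In these, CCL2 had -1.04 ± 0.31 (adjusted p = 0.123), with 5.63, 6.10 and 6.14 without serine and with compound against 6.78 to 7.65 on the other 9 arrays. ULBP1, a ligand of the NKG2D receptor, had 0.94 ± 0.26 (adjusted p = 0.0716), with 6.17, 6.22 and 6.22 against 4.09 to 5.16. Both stood outside the other 9 arrays, as 4.15% and 4.33% of all genes did, and did not pass in the main fit. ULBP1 passed when the compared arrays alone were fitted (adjusted p = 0.0251 in limma). CCL2 passed with array weights (-1.13, adjusted p = 0.049) and without replicate 62 of DMSO with serine (-1.26, adjusted p = 0.0471). Under the other alternatives neither passed.

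Among genes outside the lists above, the largest positive differences belonged to SCG5 (1.48 ± 0.23), a chaperone of neuroendocrine secretion, the peptide hormone SPX (1.43 ± 0.34), the syntrophin SNTB1 (1.24 ± 0.21), IFRD1 (1.09 ± 0.11), PABPC1L (1.06 ± 0.18) and BEX2 (1.04 ± 0.17). IFRD1, a transcriptional co-regulator, had 10.28, 10.28 and 10.29 without serine and with compound, and 9.11 to 9.33 on the other 9 arrays. It changed by -0.03 with serine lack alone and by -0.06 with compound and serine, and the adjusted p of its difference was 9.12e-09 in limma. Of the 5 probe sets of SNTB1, 3 had the same sign. SPX, with adjusted p = 0.0243, was lost on leaving out any of 7 arrays (up to 0.119, without replicate 58 of compound with serine).

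The most negative differences outside the lists were those of FGFBP1, the tight-junction protein CLDN2 (-0.86), INHA (-0.74), PKDREJ (-0.74), SLFN11 (-0.65) and the sphingolipid receptor S1PR3 (-0.61). CLDN2 had 8.56, 8.72 and 8.77 without serine in DMSO, and 7.89 to 8.46 in the other 9 arrays, including 7.91, 7.97 and 8.07 with compound and without serine. Serine lack had thus raised it by 0.67 in DMSO, and it lay at -0.19 under compound. INHA, the alpha subunit of inhibin, had a compound effect of 0.51 with serine (95% interval 0.24 to 0.78) and -0.23 without (adjusted p = 0.508), so its difference came mostly from the medium with serine. Both INHA (4.40 to 5.29) and PKDREJ (4.14 to 4.99) were dim, with all log2 signals at 6 h below the lowest array median of 5.45. CLDN2, INHA, PKDREJ, SLFN11 and S1PR3 were each lost on leaving out single arrays. Their adjusted p reached 0.133, 0.212 and 0.160 without replicate 58 of compound with serine, 0.134 without replicate 67 of DMSO without serine for SLFN11, and 0.187 without replicate 64 of compound without serine for S1PR3.

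For 15 of the 162 genes the compound effect without serine was not called by itself, and 12 of these had a positive and 3 a negative difference. Apart from CTPS1 and INHA they included MAFIP (0.38 without and -0.39 with serine), KLF11 (0.39 and -0.33), HS6ST1 (-0.20 and 0.36) and PSRC1 (-0.32 and 0.25), chosen after their values were seen. Of these named genes, MAFIP alone kept its call in every fit that left out an array. In 29 of the 162 genes, the effect with serine had the opposite sign with a 95% interval that left out 0, although 0 genes were called for that effect after adjustment. Over all genes, 1105 of 18239 had an unadjusted p under 0.05 in limma for the effect with serine, in either direction. In 154 of the 162 genes the effect was larger in size without serine. The selection itself favours such signs, because an opposite effect with serine enlarges the difference by which genes were called. These counts therefore describe how the difference is built.

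The same difference was formed at the other times. At 0 h, where cells had had no time with compound, 0 genes (0%) were called in limma, with 1070 at an unadjusted p under 0.05 and a smallest adjusted p of 0.151. At 1.5 h, with 2 arrays in the DMSO group with serine, 3 genes (0.0164%) were called: TSC22D3 at 0.77, GDF15 at 0.76 and DDIT4 at 0.57, and all 3 were called again at 6 h. TSC22D3, the glucocorticoid-induced leucine zipper, had 9.15, 9.22 and 9.27 at 6 h without serine and with compound, 8.17, 8.21 and 8.28 without serine in DMSO, and 7.55 to 7.93 with serine, and its difference there was 0.81 ± 0.12. At 24 h 234 genes (1.28%) were called, 70 higher (0.384%) and 164 lower (0.899%; 100 of 203 higher after centring). Of the 162 genes of 6 h, 29 were called in the same direction at 24 h, 2 in the other, and 118 had the same sign. These were 88 of the 112 more positive and 30 of the 50 more negative genes. The share of all genes with the same sign was not counted.

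The difference at 6 h was set against that at 24 h and at 0 h in the same fit; the time points share no arrays. From 24 h it differed for 49 genes (0.269%), 35 higher (0.192%) and 14 lower (0.0768%) at 6 h (21 and 24 after centring). From 0 h it differed for 37 genes (0.203%), 26 higher (0.143%) and 11 lower (0.0603%). TRIB3 was at 1.73 at 6 h and 0.31 at 24 h, and the change of 1.42 had an adjusted p of 7.79e-08 in limma. PCK2 went from 1.39 to 0.12 (adjusted p = 0.000154), SESN2 from 1.20 to 0.02 (0.0103), DDIT4 from 0.84 to -0.14 (0.000101) and IFRD1 from 1.09 to 0.05 (0.000101). The insulin-like growth factor binding protein IGFBP1 went from 0.90 to -0.33 (0.00633). NIBAN1, at 2.01 and 1.62, BEX2, at 1.04 and 1.03, CBS, at 0.82 and 0.73, and FGFBP1, at -1.12 and -1.28, did not differ between the times at the threshold, and all 4 were called at both. ASNS (0.97 and 0.55) and PSAT1 (0.67 and 0.50) were called at both times too.

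**Figure D4:**
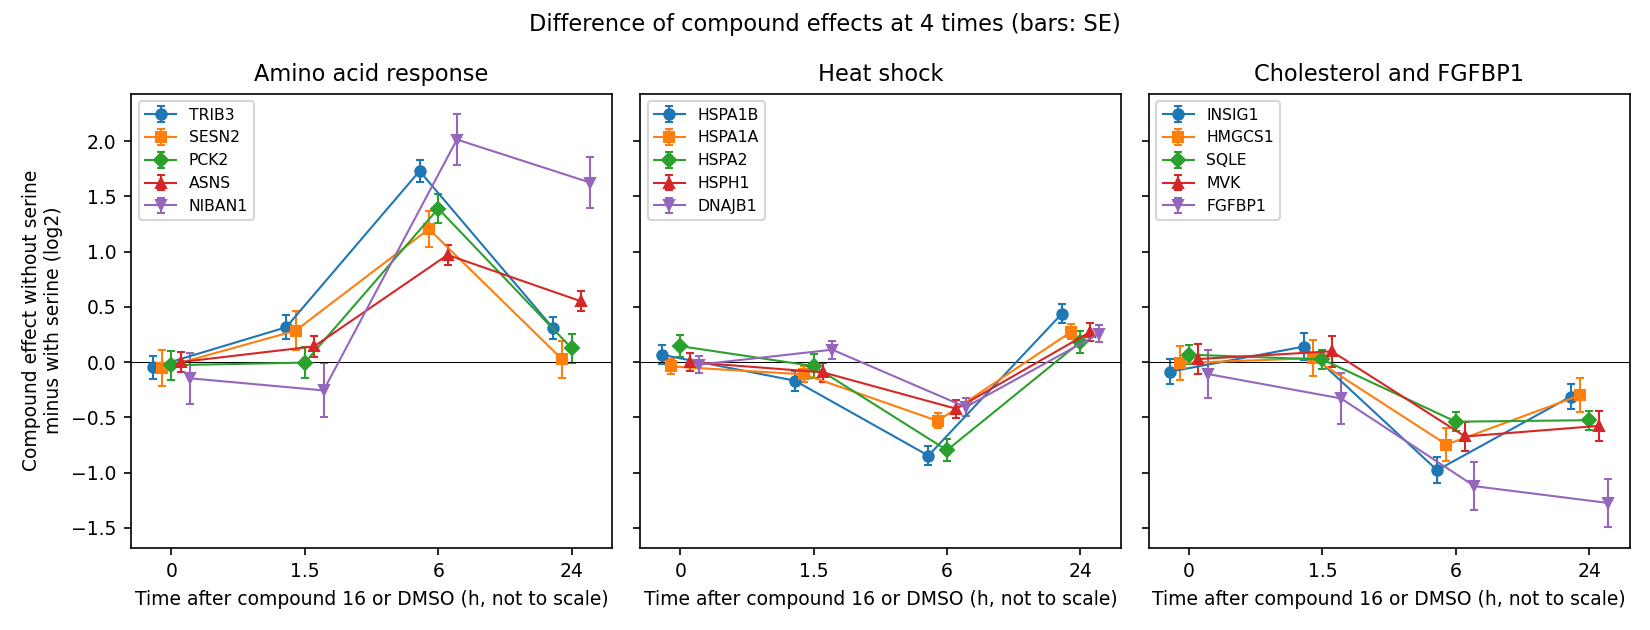
Difference of the compound effects (log2, without minus with serine) at 0, 1.5, 6 and 24 h for 15 genes; points are contrasts of group means in limma, bars are SE, and the time axis is not to scale. TRIB3, SESN2 and PCK2 peak at 6 h and lie at 0.31 or less at 24 h, NIBAN1 and FGFBP1 keep their distance from 0 at 24 h, and the 5 heat shock genes shown lie below 0 at 6 h and above 0 at 24 h, where HSPA1B and HSPA1A were called.

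For 7 of the 12 heat shock genes the difference at 6 h was lower than that at 24 h by the test of the change (0.0768% of all genes), and 2 of the 12 were called higher at 24 h (0.384% of all genes). The list median was -0.36 at 6 h and 0.16 at 24 h. HSPA1B was at -0.85 and 0.44, a change of -1.28 (adjusted p = 1.92e-08 in limma), and it was called in opposite directions at both times. HSPA1A (-0.53 and 0.27) was as well, while HSPA2, at -0.80 and 0.18, was not called at 24 h (adjusted p = 0.529). None of 21 mitosis genes was called at 6 h, and 20 were called lower at 24 h with a median of -0.57 (0.899% of all genes were called lower). For 5 of them the difference at 6 h was higher than that at 24 h by the test of the change (0.192% of all genes). Of the sterol genes, SQLE (-0.54 and -0.53) and MVK (-0.67 and -0.58) were called at both times, and INSIG1 went from -0.98 to -0.31 (adjusted p of the change = 0.0657). The interferon-induced IFIT1, at 0.33 and -1.30, and IFITM1, at 0.34 and -0.98, differed between the times by 1.63 (0.0255) and 1.31 (0.0338) without being called at 6 h.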

How the data were processed

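Transcripts were measured on 50 Affymetrix HG-U219 arrays in 17 groups, of which 12 arrays in 4 groups form the comparison. The deposited values are log2 signals of probe sets, made by the authors with RMA (background correction, normalization between arrays, summary of probes) per the submitters' processing notes, which also name limma. The version of RMA is not given in the sources used here. RMA compresses changes of dim probe sets, and normalization between arrays removes a shift shared by all genes. Of 49386 probe sets, the platform annotation gave 45253 with 1 gene symbol, 1327 with several, 2713 with none and 93 controls; those with 1 symbol were used. The brightest probe set over all arrays stood for each of 18239 genes, 11822 of which had several.

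A single linear model with 17 group means was fitted to the 50 arrays with limma 3.58.1 in R 4.3.3, and variances were moderated by eBayes (33 residual and 3.7 prior degrees of freedom). Genes counted as called when the p, adjusted by Benjamini-Hochberg over all genes in each of 10 comparisons, was under 0.05. The median SE was 0.173 for the difference of compound effects and 0.122 for each effect; precision is limited by the number of arrays. The fit was tested on simulated data. No 2 arrays held identical values throughout, and no column lacked a sample. The members, gene lists (42 lists, 474 genes measured) and markers were chosen with earlier results of these data known, so no p-value was adjusted over a list alone. Named genes were a fixed set of 12, the 15 most positive and 12 most negative called genes, up to 3 called members per list (or the one with the smallest p), and the genes that differed most between 6 and 24 h; others were named because their values were seen. Alternatives were quantile normalization, centring, dropping the dimmest 40% of genes, the mean of all probe sets, array weights, a fit of the compared arrays alone, and leaving out each array.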

Additional observations from a re-analysis of the deposited data

Results flagged for a closer look

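The compound effect at 6 h differed between the 2 media for 162 genes by the test of the difference itself in limma, which is the main comparison described above. The difference at 6 h in turn differed from that at 24 h for 49 genes in limma. Of the named genes, TRIB3 (1.42), PCK2 (1.26), SESN2 (1.18), IFRD1 (1.04), DDIT4 (0.99) and CEBPG (0.68) had a higher value at 6 h, where all 6 were called. IGFBP1 (1.23) was also called at 6 h, whereas IFIT1 (1.63) and IFITM1 (1.31) were called at 24 h only. HSPA1B (-1.28), HSPA2 (-0.98), HSPA1A (-0.81) and INHA (-1.17) had a lower value at 6 h than at 24 h and were called at 6 h, whereas ARHGAP31 (-1.26) and LIN52 (-0.98) were not. All these values are differences on the log2 scale with 3 arrays in each of 8 groups. With 3 arrays a group, no group was large enough to test a single array as an outlier.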

How the results depend on the processing

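A fit of the 12 compared arrays alone called 56 genes (46 higher, 10 lower) where the 50 arrays gave 162, and 48 of the 56 were among the 162; the difference values are the same in both fits and only the estimate of the spread changed. The count was 116 to 158 on leaving out 1 array, and 85 genes (65 higher, 20 lower) were called in all 12 such fits. It was 164 with quantile normalization, 163 (100 and 63) with centring, 240 without dim genes, 160 with the mean of all probe sets and 218 with array weights. Fitting the compared arrays alone also gave 93 genes for compound without serine, 25 for serine lack in DMSO, 814 for serine lack under compound, 0 for the difference at 1.5 h, 67 at 24 h, 19 for 6 h minus 0 h and 20 for 6 h minus 24 h. Centring gave 1 gene for the difference at 0 h and 8 at 1.5 h. Leaving out dim genes gave 7 at 1.5 h, 57 for 6 h minus 0 h and 105 for 6 h minus 24 h, and the mean of probe sets gave 96 for the last. Array weights gave 772 genes for compound without serine and 13 for the difference at 1.5 h. On leaving out 1 array, compound without serine gave 307 to 348 genes (307 without its compound replicate 63, 328 without 64), compound with serine 0 to 1 (1 without its compound replicate 58), serine lack under compound 1580 to 1949, and serine lack in DMSO 304 to 452 (304 without replicate 62 with serine, 352 and 365 without replicates 67 and 66 without serine). The cause of these shifts was not tested.

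Of 62 named genes called at 6 h, 61 kept the call with quantile normalization (S1PR3 lost), 61 with centring (SLC3A2 lost), 57 with the mean of probe sets (ATF3, SLC7A11, SLC1A4, BBC3 and HERPUD1 lost), 61 with array weights (INHA lost) and 32 with the compared arrays alone. The 30 lost there include PHGDH (adjusted p = 0.0533), PSPH (0.0537), SHMT2 (0.132), MTHFD2 (0.0647), HMGCS1 (0.195) and SQLE (0.0986). They also include TNFRSF10B (0.176), MAP1LC3B (0.137), MANF (0.129) and KRT19 (0.104). Leaving out single arrays ended the call for 16 of the 62 at least once, and none of the 62 changed sign under any of these alternatives. Among named genes that were not called, CD14 did (-0.22, and up to 0.10 on leaving out an array). No paired analysis was possible because the numbers in the titles run through the series and no 2 groups share one. These numbers run group by group within a time, so a drift along them cannot be told apart from the groups.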
